A study of Mus musculus with 12 samples.

Results

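Clock output genes carry the rhythm of the circadian clock to the rest of the cell. The 9 genes described here are Dbp, Tef, Hlf, Nfil3, Bhlhe40, Bhlhe41, Ciart, Usp2 and Rora, chosen by symbol as transcription factors and targets downstream of the clock, out of 25239 gene symbols in the count table. RNA sequencing was carried out on brain and liver of male C57BL6/J wild-type mice of 24 months, with 3 control and 3 heat stress libraries per tissue and 12 in all. The heat stress groups were kept for 3 hours a day over 15 days at 40 °C and 60% relative humidity, and the controls shared strain, sex and age. The labels name whole tissues, give no brain region, and give no hour of the day at which the tissues were taken, so whether that hour differed between the groups was not tested. In bulk tissue, fewer cells of a type and less RNA per cell cannot be told apart either.

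In the core clock, CLOCK and BMAL1 (encoded by Arntl) activate genes through E-boxes, and PER and CRY proteins repress them in turn. Among the outputs, DBP, TEF and HLF are the PAR bZIP activators, which bind D-boxes, while NFIL3 represses through the same element. BHLHE40 and BHLHE41, also called DEC1 and DEC2, are repressors that compete for E-boxes, and CIART represses CLOCK and BMAL1. USP2 removes ubiquitin from proteins, and RORA activates Arntl through ROR elements that the REV-ERB repressors also bind. In liver, the PAR bZIP factors are known for driving daily rhythms of detoxification and of heme and bile acid metabolism.

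CLOCK and BMAL1 act through the E-box, so the members' promoters that hold a full one are shown first. RefSeq promoter windows on GRCm38.p6, each from 250 bases before to 50 bases after the start site, were matched to 8 of the 9 members, with 2 windows for Tef and none for Bhlhe40. The E-box CACGTG is a palindrome and therefore read alike on both strands. It occurred in windows of 3 of the 8 members, in the case of Tef in each of its 2 windows. Of 32851 promoter windows of the same length, 7.15% held it, a share of windows and not of genes. The Ciart window held 3 copies, which 29 windows, or 0.0883%, reached or passed. The capitals mark each E-box, and every sequence is written 5′ to 3′ along the gene.
Ciart, chr3:95882179-95882478, minus strand: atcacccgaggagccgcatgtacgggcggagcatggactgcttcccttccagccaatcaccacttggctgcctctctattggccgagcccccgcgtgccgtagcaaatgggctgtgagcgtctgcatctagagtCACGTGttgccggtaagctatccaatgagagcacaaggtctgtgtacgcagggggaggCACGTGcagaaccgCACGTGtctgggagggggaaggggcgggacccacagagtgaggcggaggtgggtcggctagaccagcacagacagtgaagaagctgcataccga
Bhlhe41, chr6:145865371-145865670, minus strand: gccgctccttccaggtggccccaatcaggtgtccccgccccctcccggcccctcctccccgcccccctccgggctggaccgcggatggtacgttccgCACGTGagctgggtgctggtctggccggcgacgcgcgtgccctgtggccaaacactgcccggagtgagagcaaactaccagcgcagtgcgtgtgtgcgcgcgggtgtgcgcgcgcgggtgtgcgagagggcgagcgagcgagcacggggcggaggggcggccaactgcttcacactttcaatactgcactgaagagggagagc
Tef, chr15:81802423-81802722, plus strand: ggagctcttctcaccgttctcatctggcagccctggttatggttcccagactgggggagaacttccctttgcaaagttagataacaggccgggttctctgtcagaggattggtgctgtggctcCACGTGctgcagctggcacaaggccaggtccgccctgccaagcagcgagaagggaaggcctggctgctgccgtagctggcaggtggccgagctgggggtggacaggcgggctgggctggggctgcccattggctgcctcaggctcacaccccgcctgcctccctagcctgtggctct
Tef, second window, chr15:81811164-81811463, plus strand: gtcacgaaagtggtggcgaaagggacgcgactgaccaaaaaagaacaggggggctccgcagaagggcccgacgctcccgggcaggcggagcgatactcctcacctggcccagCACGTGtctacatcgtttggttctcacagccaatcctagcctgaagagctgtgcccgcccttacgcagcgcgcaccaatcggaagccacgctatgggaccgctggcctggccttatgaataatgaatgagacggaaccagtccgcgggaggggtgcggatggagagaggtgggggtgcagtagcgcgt
The first base of the E-box lay at -116, -58 and -44 from the start site in Ciart, at -153 in Bhlhe41, and at -127 and -138 in the windows of Tef. The ROR half-site TAGGTCA, searched on both strands, was found in the Nfil3 window alone, at -12, and in 2.61% of all windows. The D-box core TTATGTA, searched on both strands, was in no member's window and in 2.63% of all windows. None of these motifs overlapped another in a member's window, and a match describes letters, not binding.

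On GRCm38 the PAR bZIP genes lie at chr7:45705088-45710203 (Dbp, plus strand), chr15:81802421-81826863 (Tef, plus) and chr11:90336536-90390895 (Hlf, minus). The repressors lie at chr13:52967209-52981073 (Nfil3, minus), chr6:108660629-108666925 (Bhlhe40, plus), chr6:145858243-145865558 (Bhlhe41, minus) and chr3:95878503-95882251 (Ciart, minus). Usp2 and Rora lie on the plus strand at chr9:44067021-44095627 and chr9:68653786-69388246. Values count reads over the exons of the whole gene, so transcripts of a gene are not told apart. Exons of Dbp, Tef, Bhlhe40, Bhlhe41, Usp2 and Rora overlap a gene on the opposite strand, Sphk2 in the case of Dbp, and reads of such pairs cannot be told apart unless the counting used strand, which the sources do not give.

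Library totals ranged from 10466198 to 15609040 counts. Hepatocyte markers summed to between 76068 and 122338 CPM (counts scaled to a common library total) in liver, and neuron markers to between 5477 and 7824 CPM in brain. The liver libraries of control replicate 1 and heat stress replicate 2 stood apart, because their 10 skeletal muscle markers summed to 438 and 2458 CPM against 1.40 to 7.81 CPM in the other 4 liver libraries, where Acta1, Ckm, Myh1, Myh4, Tnnt3, Atp2a1 and Pvalb were each at 0 in at least 1 library. Neuron markers summed to 32.0 CPM in liver control replicate 1 and to between 13.0 and 18.5 CPM in the other 5 liver libraries. In brain, control replicate 3 stood apart, with 8 thalamus and habenula markers at 363 CPM against 45.1 to 90.8 CPM in the other 5. In the column names, control replicate 2 and heat stress replicates 1 and 3 of liver are marked 2nd, which no source used here explains. All 9 members passed the filter on low counts in every comparison.

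The members were first placed by level in the control tissues, on the scale of CPM per kilobase of exon with all 12 libraries normalized together. Tef led in control brain with a level of 31.9 ± 2.47 CPM per kilobase (SD, n = 3), followed by Hlf at 23.1 ± 4.27 and Dbp at 16.0 ± 0.871, and these neighbours did not overlap. Below Dbp, every member's range overlapped that of the next in the order Bhlhe40, Usp2, Rora, Bhlhe41, Ciart and Nfil3, which ended at 3.29 ± 0.201. In control liver the order was Bhlhe40 at 44.8 ± 12, Dbp at 36.0 ± 15.7 and Tef at 25.1 ± 5.56, where the ranges of neighbours overlapped, and then Nfil3, Hlf, Rora, Usp2, Ciart and, lowest, Bhlhe41 at 0.801 ± 0.291. Among these only the steps from Tef to Nfil3 and from Ciart to Bhlhe41 were free of overlap. After heat stress Dbp was at 72.5 ± 15.3 and Bhlhe40 at 63.6 ± 10.4 CPM per kilobase in liver, with ranges that overlapped, and Usp2 stood next below Tef with 12.9 ± 3.84.

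Between control liver and control brain, 6 of the 9 members differed by edgeR's quasi-likelihood test at a Benjamini-Hochberg adjusted p-value under 0.05, where 80.4% of the 15824 genes tested did. Nfil3, Bhlhe40 and Dbp were higher in liver, as were 36.1% of genes, with log2 differences of 1.65 ± 0.21 (SE), 1.62 ± 0.22 and 1.18 ± 0.26. Bhlhe41, Hlf and Usp2 were lower in liver, as were 44.2% of genes, by log2 differences of -2.59 ± 0.22, -1.38 ± 0.18 and -0.97 ± 0.36. The DEC repressors thus differed between the tissues in opposite directions. Usp2 lost its call when brain control 1, liver control 2 or liver control 3 was left out, with edgeR adjusted p = 0.0699, 0.0780 and 0.0814, and over all 19 alternatives its adjusted p-value ranged from 1.67e-04 to 0.0814. Its log2 difference was -1.61 without liver control 1 and -0.63 without liver control 2. Tef, Ciart and Rora did not pass, with log2 differences of -0.35, -0.17 and 0.15. That of Tef was -0.18 without liver control 2. Tef passed in 5 of 19 alternative analyses, Ciart without liver control 1, alone or together with the other muscle library (log2 difference -0.93 in each case) and Rora without brain control 3 (0.63).

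In liver, 5 of the 9 members, Dbp, Tef, Bhlhe41, Ciart and Usp2, were higher in every heat stress library than in every control library, where 5.38% of the 12296 genes tested were so. None was lower in every library, against 5.73% of genes. On the scale of CPM per kilobase with all 12 libraries normalized together, the liver groups of Ciart overlapped. Control replicate 1 was at 5.97 there and heat stress replicate 2 at 5.85. Bhlhe41 had the highest fold change of the members, 4.20. None of the 9 passed the adjusted threshold of 0.05 with edgeR, nor did any other gene (0%), the smallest adjusted p-value in liver being 0.0599. At an unadjusted p-value under 0.05, 6 members were higher and 0 lower, against 2.97% and 2.87% of genes (5.84% in either direction), and DESeq2 called 2 members, Bhlhe41 and Usp2, against 0.52% of genes. The median log2 fold change of the members was 0.54, beside 0.01 over all genes tested. Without the 2 libraries with muscle transcripts, 4 members were called by edgeR, Dbp, Bhlhe41, Ciart and Usp2, against 0.662% of genes. Without control replicate 1 alone the called members were Bhlhe41 and Ciart, against 0.2% of genes. Bhlhe41 alone was called without the filter on low counts, against 0.0446% of genes, and with all 12 libraries in a model, against 0.0885%.

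**Figure D1:**
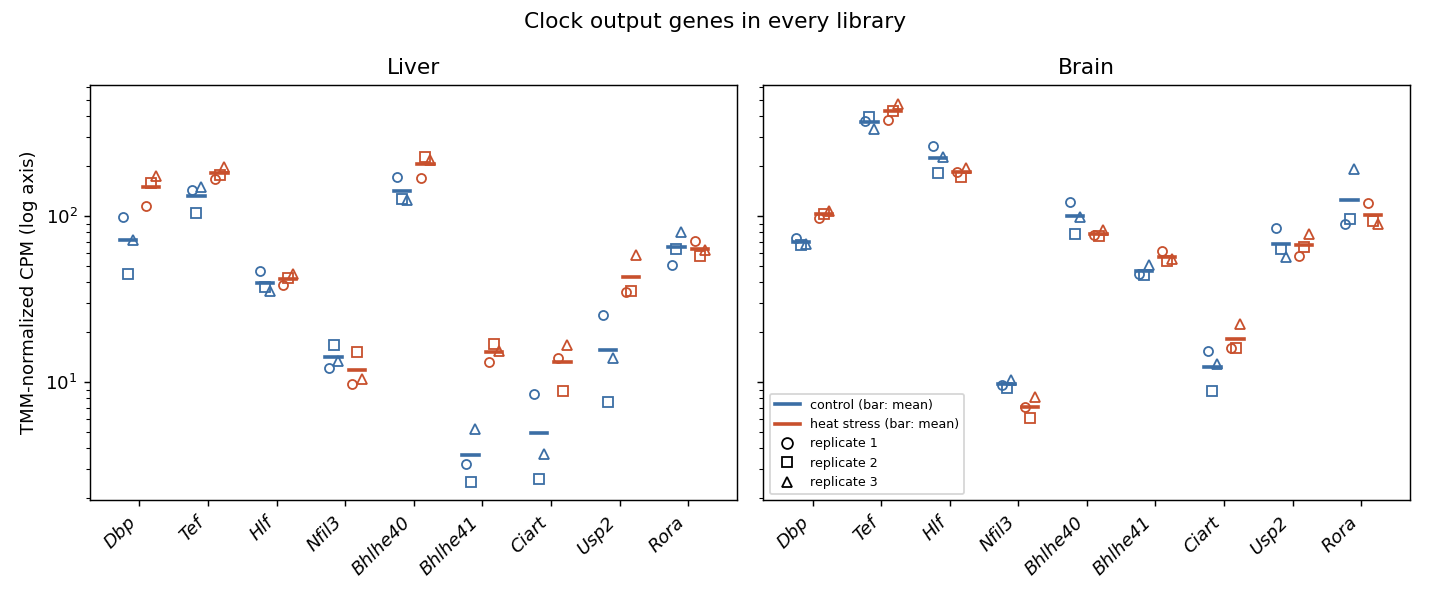
Level of the 9 clock output genes in every library, as TMM-normalized CPM on a log axis, with liver on the left and brain on the right. Symbols mark replicates, colours mark control and heat stress, and bars are means of 3 libraries. In liver the heat stress points of Dbp, Tef, Bhlhe41, Ciart and Usp2 lie above all control points, and in brain those of Dbp, Bhlhe41 and Ciart do, while those of Nfil3 lie below.

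Among the PAR bZIP factors in liver, Dbp was at 98.4, 45.1 and 72.2 CPM in control replicates 1 to 3 and at 115, 158 and 175 CPM after heat stress. The lowest heat stress library was thus above the highest control library, although control replicate 1 came close. The group means were 71.9 ± 26.6 and 149 ± 30.9 CPM (SD, n = 3), a log2 fold change of 1.05 ± 0.28 (SE) with an adjusted p = 0.464 in edgeR's quasi-likelihood test, which over the alternatives lay between 0.0370 and 1.00. Tef was at 144, 105 and 150 CPM in the controls and at 167, 178 and 197 CPM after heat stress. Its groups did not overlap, but the log2 fold change was only 0.44 ± 0.19 with an edgeR adjusted p = 0.848. Hlf, the third PAR bZIP gene, was at 46.6, 37.5 and 35.5 CPM in the controls and 38.4, 42.7 and 44.7 CPM after heat stress. These ranges overlapped, and its log2 fold change of 0.07 turned to -0.0064 without control replicate 3.

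Nfil3, the repressor at D-boxes, was at 12.3, 16.9 and 13.5 CPM in control liver and at 9.75, 15.3 and 10.5 CPM after heat stress. The groups overlapped through heat stress replicate 2, and the log2 fold change was -0.26 ± 0.23 with a 95% confidence interval from -0.77 to 0.25, and it ranged from -0.49 to -0.12 as single libraries were left out.

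Bhlhe41 had the lowest level of the members in control liver, with 50, 31 and 56 reads, and 179, 244 and 196 reads after heat stress. As CPM, the control libraries held 3.23, 2.53 and 5.22 and the heat stress libraries 13.3, 17 and 15.5. Every heat stress library was more than 2 times the highest control library. The log2 fold change of 2.07 ± 0.27 ranked 3 of 12296 genes by p-value, with an edgeR adjusted p = 0.0678, and over 15 alternatives it stayed between 1.86 and 2.40 with adjusted p-values from 2.14e-07 to 0.882, of which 6 passed. Muscle markers summed to 3.65, 2458 and 7.81 CPM in the same 3 heat stress libraries, and Bhlhe41 was highest in the library with most of them. Without that library and control replicate 1 its log2 fold change was 1.89 ± 0.31. Bhlhe40, the other DEC repressor, was at 173, 128 and 125 CPM in the controls and 170, 227 and 218 CPM after heat stress. There the lowest heat stress library fell below control replicate 1, and the log2 fold change was 0.54 ± 0.21 with an edgeR adjusted p = 0.800.

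Usp2 was at 25.3, 7.58 and 14.1 CPM in control liver and at 34.8, 35.7 and 58.3 CPM after heat stress. The groups did not overlap, and the control libraries themselves spread more than 3-fold, with control replicate 1 highest. The fold change was 2.72, or 1.45 ± 0.38 on the log2 scale, with adjusted p-values of 0.464 by edgeR and 0.0425 by DESeq2 and a range over the alternatives from 0.0253 to 1.00. Ciart was at 8.46, 2.61 and 3.73 CPM in the controls and at 13.9, 8.85 and 16.8 CPM after heat stress. The lowest heat stress library was barely above control replicate 1, so the separation of the groups rested on a narrow gap. The log2 fold change of Ciart was 1.39 ± 0.41 with an edgeR adjusted p = 0.558, and 2.04 ± 0.32 with an adjusted p = 0.0211 when control replicate 1 was left out, within a range over the alternatives from 1.37e-04 to 1.00.

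Rora, the activator at ROR elements, was at 51.2, 63.9 and 80.6 CPM in control liver and at 71.3, 57.8 and 62.6 CPM after heat stress. The groups overlapped fully, and the log2 fold change was -0.03 with a 95% confidence interval from -0.48 to 0.42. Its sign turned without control replicate 3, to 0.15, and without heat stress replicate 2, to 0.04.

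The suffix and markers of immune cells were set beside these liver values. Heat minus control in the libraries with the suffix, 2 against 1, was 2.62 for Usp2, 2.56 for Ciart, 2.51 for Bhlhe41 and 1.68 for Dbp on the log2 scale. In those without it, 1 against 2, the same differences were 0.86, 0.54, 2.01 and 0.89. Since the groups of these 4 do not overlap, their sign was fixed in either subset, and each subset has an arm of 1 library. Among the members whose groups overlapped, Nfil3 differed by -0.74 with the suffix and 0.24 without it, and Rora by 0.07 and -0.19. Bhlhe40, with 0.61 and 0.61, and Hlf, with 0.15 and 0.05, kept their sign. With the suffix as a covariate, Bhlhe41 was the only member that edgeR called, against 0.0488% of genes, with a log2 fold change of 2.24 ± 0.26 and an adjusted p = 0.0322. The 6 T and NK cell markers summed to between 1.74 and 4.57 CPM in control liver and between 10.0 and 17 CPM after heat stress, with none at 0 in any liver library and 4 of 5 tested higher at an unadjusted p-value under 0.05, against 2.97% of genes. The 6 macrophage markers summed to between 127 and 176 CPM and between 155 and 223 CPM, which overlapped, with 0 of 6 at that level. The part of these cells in the members' values was not tested.

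**Figure D2:**
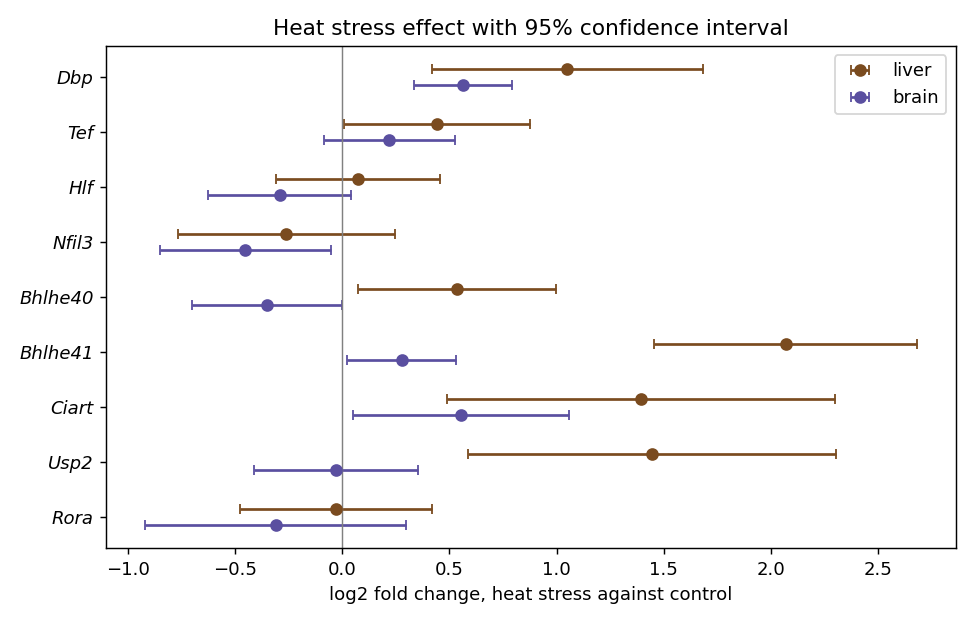
Log2 fold change of heat stress against control for each of the 9 genes in liver and in brain from edgeR, with 95% confidence intervals as bars. The liver estimate is highest for Bhlhe41, at 2.07, and the liver and brain intervals do not overlap for Bhlhe40, Bhlhe41 and Usp2.

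Genes of the surrounding pathway were grouped by list. Of 15 genes listed as PAR bZIP targets, 4 were higher after heat stress at an unadjusted p-value under 0.05 and 0 were lower, against 2.97% and 2.87% of all genes, none passed after adjustment, and the list's median log2 fold change was 0.33 beside 0.01 over all genes. Alas1, the rate-limiting enzyme of heme synthesis, was at 435, 217 and 281 CPM in the controls and at 592, 677 and 844 CPM after heat stress, a log2 fold change of 1.18 ± 0.27. The other 3 were Cyp2a5, a cytochrome P450 (0.88 ± 0.24), Upp2, a uridine phosphorylase (0.75 ± 0.22), and Por, which passes electrons to cytochromes P450 (0.74 ± 0.22). All 4 were higher in every heat stress library than in every control, against 5.38% of all genes, with edgeR adjusted p-values between 0.416 and 0.588. With all 12 libraries normalized together the groups of Por overlapped, at 89.4 CPM per kilobase in control replicate 1 and 89.1 in heat stress replicate 1. In the other direction, Acot4, an acyl-CoA thioesterase (-0.16 ± 0.16), and Cyp2c50, a cytochrome P450 (-0.18 ± 0.18), were lower in every heat stress library, against 5.73% of all genes, though not at that unadjusted level. Cyp2a5 is nearly identical to Cyp2a4, whose log2 fold change was -0.37, and the split of reads between them is uncertain. Cyp7a1, the rate-limiting enzyme of bile acid synthesis, had a log2 fold change of -0.14 ± 0.39.

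Among the genes listed as ROR and REV-ERB targets, Arntl, Clock and Elovl3 were lower in heat stress liver, each at an unadjusted p-value under 0.05. Of all genes, 2.87% were lower at that level. Arntl was at 3.68, 5.63 and 2.33 CPM in the controls and at 1.34, 2.16 and 0.946 CPM after heat stress. Every heat stress library was below every control library, with a log2 fold change of -1.38 ± 0.41 and an edgeR adjusted p = 0.604. Clock was at 33.1, 45.1 and 47.2 CPM against 29.9, 26.5 and 20.2 CPM (log2 fold change -0.71 ± 0.21). Elovl3, an elongase of fatty acids, differed by -0.90 ± 0.21. Among the 7 core clock genes, 2 were higher at that level and 0 lower, against 2.97% and 2.87% of all genes, with a median of 0.41. They were Per1, at 20.5, 10.6 and 15.0 CPM against 23.9, 36.8 and 48.2 CPM (1.24 ± 0.30), and Nr1d1, which encodes REV-ERB alpha and whose groups overlapped (0.61 ± 0.26). Of 7 other rhythmic output genes, only Tsc22d3, a gene induced by glucocorticoids, reached an unadjusted p-value under 0.05, with a log2 fold change of -0.82 ± 0.20, while the list's median was 0.35. None of these genes passed after adjustment with edgeR.

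**Figure D3:**
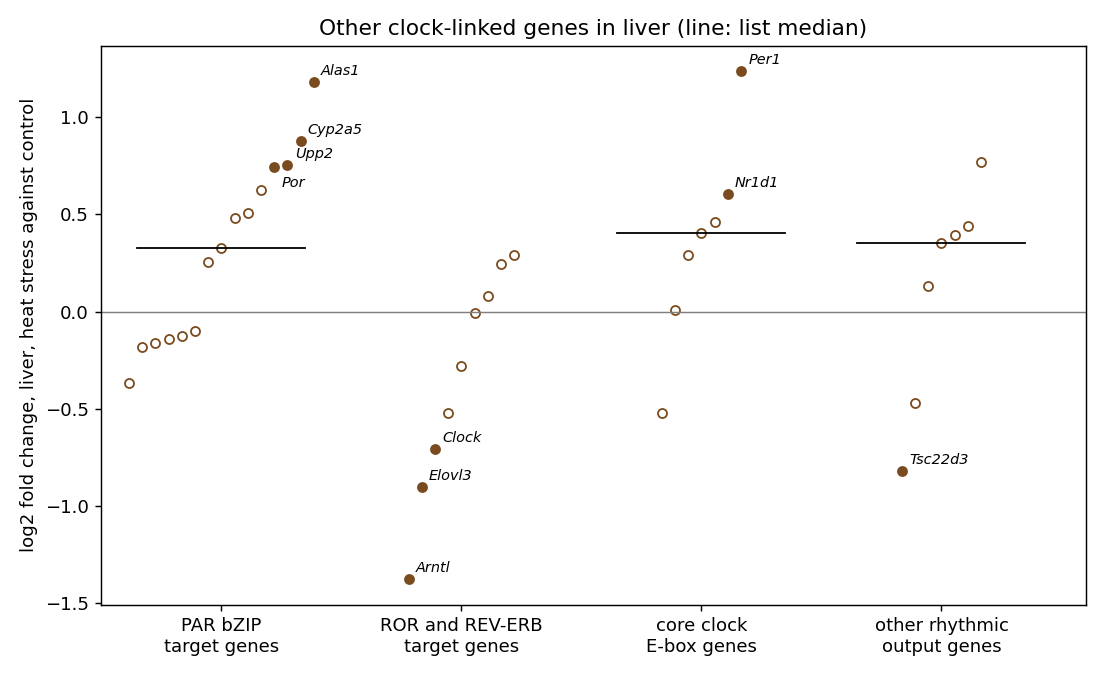
Log2 fold change of heat stress against control in liver for the genes of 4 clock-linked lists, 1 point per gene in order of its value, with the list median as a line for all but the ROR and REV-ERB targets. Filled points have an unadjusted p-value under 0.05 and are named; Arntl is lowest at -1.38 and Per1 highest at 1.24.

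The profile of each liver gene was also compared with that of Dbp library by library, as the root mean square difference of log2 CPM after centring each gene over the 6 liver libraries. Alas1 was nearest with 0.133 and Per1 next with 0.147, followed by Unc93a2, A530013C23Rik and Wipf3 at up to 0.169. Among the members, Usp2 ranked 102, Bhlhe40 184, Tef 275 and Ciart 529 of 12295 other genes, while Bhlhe41 ranked 3276 and Nfil3 9747. In brain the genes nearest Dbp were 1190007I07Rik (0.0397), 9330133O14Rik (0.0468), Lpin3, Kifc5b and Glmn (0.0824), and the nearest members were Tef at rank 690 and Bhlhe41 at rank 695 of 14805. The 6 points of a profile share their libraries and normalization, and the likeness is a description.

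**Figure D4:**
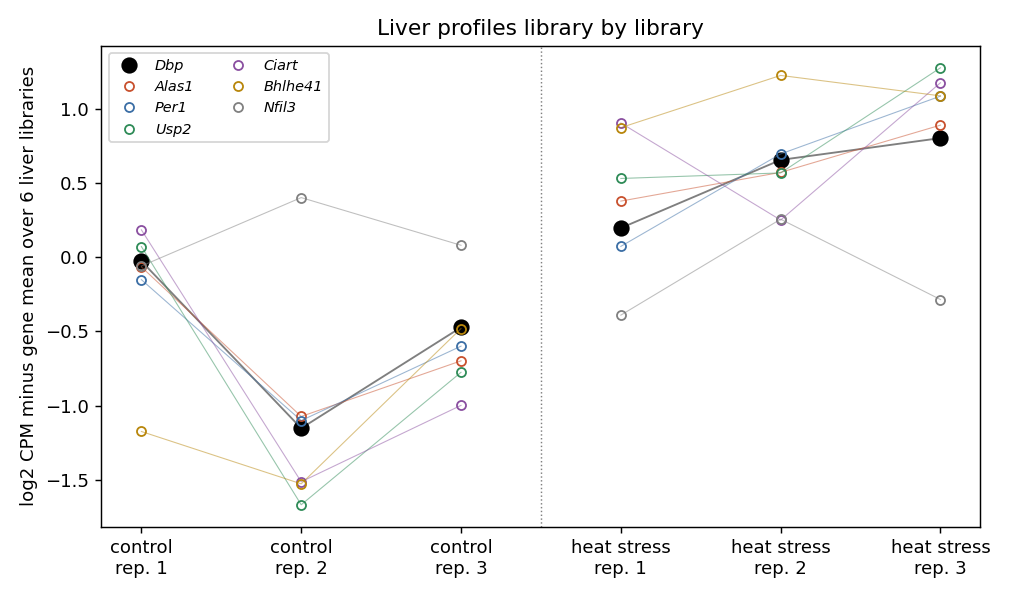
Log2 CPM minus the gene's own mean over the 6 liver libraries, for Dbp, its 2 nearest genes Alas1 and Per1, and 4 members. Lines only join the points of a gene within a group, since replicates have no order. Control replicate 2 holds the lowest Dbp, Usp2, Ciart and Bhlhe41 values and the highest Nfil3 value.

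In brain, 3 of the 9 members, Dbp, Bhlhe41 and Ciart, were higher in every heat stress library than in every control library, against 12.9% of the 14806 genes tested. One member, Nfil3, was lower in every library, against 12% of genes. None passed the adjusted threshold with edgeR, nor did any other gene (0%). At an unadjusted p-value under 0.05, 3 members were higher and 2 lower, against 10% of genes in each direction and 20.1% in all, and DESeq2 called 1, Dbp, against 7.95% of genes. Between 2 and 4 members reached that unadjusted level with edgeR when each brain library was left out, for which the share of all genes is not given. The members' median log2 fold change was -0.03, beside -0.0030 over all genes.

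Dbp had the lowest p-value of the members in brain. It stood at 74.0, 67.3 and 68.0 CPM in the controls and 97.4, 104 and 108 CPM after heat stress. The spread within each group was small beside the distance between the groups, whose means were 69.8 ± 3.72 and 103 ± 5.22 CPM (SD, n = 3). The log2 fold change of 0.56 ± 0.10 ranked 7 of 14806 genes by p-value, with an adjusted p = 0.170 by edgeR and 0.00471 by DESeq2, over alternatives that ranged up to 0.546. Tef, the member with the highest level, was at 376, 394 and 333 CPM and at 378, 430 and 475 CPM. Its groups overlapped, with a log2 fold change of 0.22 ± 0.14, and 0.14 without heat stress replicate 3. Hlf was at 265, 183 and 228 CPM in the controls and at 184, 172 and 195 CPM after heat stress, which overlapped as well, with -0.29 ± 0.15, and -0.16 without control replicate 1.

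Nfil3 was at 9.67, 9.25 and 10.3 CPM in control brain and at 7.11, 6.09 and 8.12 CPM after heat stress. All heat stress libraries lay below the controls, and the log2 fold change was -0.45 ± 0.18 with an edgeR adjusted p = 0.210. Bhlhe41 was at 45.1, 44.5 and 51.2 CPM and at 62.0, 53.6 and 55.1 CPM. Its groups were separated by a small step, with a log2 fold change of 0.28 ± 0.11 and an edgeR adjusted p = 0.223. Bhlhe40 was at 123, 78.7 and 98.4 CPM in the controls and at 77.1, 75.6 and 82.3 CPM after heat stress. The heat stress libraries were close together while control replicates ranged widely, and the groups overlapped, with a log2 fold change of -0.35 ± 0.16, which was -0.18 without control replicate 1.

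Ciart was at 15.5, 8.81 and 13.0 CPM in control brain and at 16.2, 16.2 and 22.6 CPM after heat stress. The groups did not overlap, by a narrow margin, and the log2 fold change was 0.55 ± 0.22 with an edgeR adjusted p = 0.221, and 0.36 without control replicate 2. Usp2 was at 85.0, 63.1 and 56.9 CPM and at 57.8, 65.3 and 77.9 CPM. These values overlapped, and the log2 fold change of -0.03 had a 95% confidence interval from -0.41 to 0.35. Rora was at 89.5, 96.3 and 192 CPM in the controls and at 120, 94.2 and 89.4 CPM after heat stress. Its highest value fell in control replicate 3, the library with 363 CPM of thalamus and habenula markers, and the log2 fold change of -0.31 turned to 0.12 without that library.

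**Figure D5:**
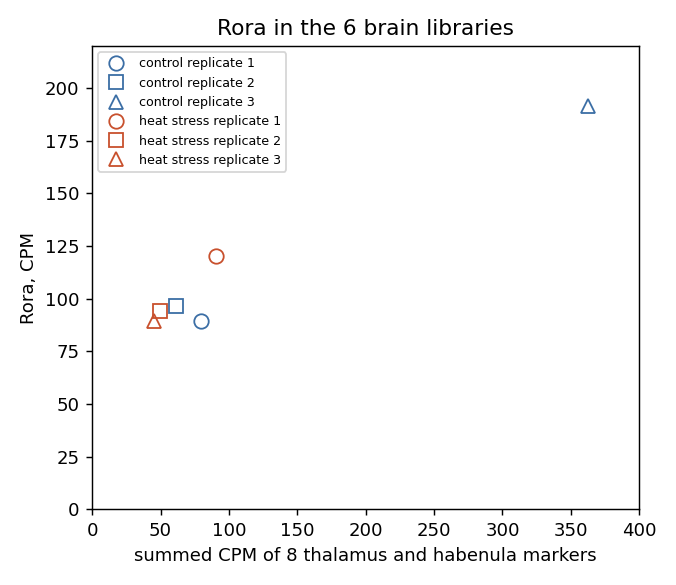
Rora in CPM against the summed CPM of 8 thalamus and habenula markers in the 6 brain libraries, with colours for the groups and symbols for replicates. Control replicate 3 lies alone at 363 CPM of markers and 192 CPM of Rora, and the other 5 libraries hold between 89.4 and 120 CPM of Rora.

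Markers of some brain regions differed between the brain groups, although the sums of the striatum and of the thalamus and habenula markers overlapped. The 8 striatum markers summed to between 371 and 662 CPM in the controls and between 661 and 1427 CPM after heat stress, with 8 of 8 higher at an unadjusted p-value under 0.05, against 10% of genes. Of the 8 thalamus and habenula markers, which summed to between 61.0 and 363 CPM and between 45.1 and 90.8 CPM, 5 were lower at that level, against 10% of genes, and 0 higher, with a median log2 fold change of -1.69. The 6 choroid plexus markers summed to between 65.0 and 136 CPM and between 18.6 and 54.8 CPM, with 4 lower at that level and 0 higher. No marker of these 3 lists was at 0 in any brain library. The 6 cerebellum markers summed to between 28.6 and 49.2 CPM in the controls and between 27.1 and 48.3 CPM after heat stress. Those ranges overlapped, and 1 of 3 tested was higher at that level, against 10% of genes. The part of these regions in the members' values was not tested. Among the hepatocyte markers, Ttr, which choroid plexus also makes, was at 1159 to 2325 CPM in the controls and 227 to 1057 CPM after heat stress, while the other 7 were each below 10 CPM in every brain library, with Serpina1c, Tat and Ass1 at 0 in some.

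The same pathway lists were counted in brain, where an unadjusted p-value under 0.05 was reached by 10% of all genes in each direction. None of the 8 PAR bZIP targets tested reached that level, against 20.1% of genes in either direction, and their median log2 fold change was -0.13. Among the ROR and REV-ERB targets, Arntl was lower, at 38.0, 28.7 and 30.7 CPM against 21.9, 22.1 and 24.6 CPM, and Cry1 was higher. The groups of Arntl did not overlap, and its log2 fold change was -0.51 ± 0.14 with an edgeR adjusted p = 0.170. Among the 7 core clock genes, Nr1d2, which encodes REV-ERB beta, was higher at 130, 136 and 152 CPM against 203, 197 and 182 CPM, a log2 fold change of 0.48 ± 0.11, and Cry1 differed by 0.28 ± 0.12. The median of these 7 genes was -0.01, which changed sign to 0.0047 with upper quartile normalization. Of 7 other rhythmic output genes, Coq10b alone reached that level, with 0.30 ± 0.12.

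Whether the heat stress effect differed between liver and brain was tested in a model of the 4 groups. All 9 estimates of the liver effect minus the brain effect were positive, with a median of 0.46 beside -0.04 over all genes tested. The share of positive estimates over all genes was not counted, and the 9 estimates share their libraries. None of the 9 passed the adjusted threshold with edgeR, where 0.00632% of 15824 genes, a single gene, did. At an unadjusted p-value under 0.05 the count was 3, against 3.73% of genes in that direction, and DESeq2 called 1, Bhlhe41, against 0.449%. For Bhlhe41 the difference was 1.79 ± 0.30 on the log2 scale, rank 3 by p-value, with an edgeR adjusted p = 0.168 and a range from 1.16e-06 to 0.577 over the alternatives. Without liver control 3, edgeR called it against 0.0186% of genes, with a difference of 2.08 ± 0.26 and an adjusted p = 0.0478. For Usp2 the difference was 1.42 ± 0.51 and for Bhlhe40, whose groups overlapped in each tissue, 0.86 ± 0.30, both with an edgeR adjusted p = 0.516. Dbp, with log2 fold changes of 1.05 in liver and 0.56 in brain, gave a difference of 0.46 ± 0.37 with a 95% confidence interval from -0.33 to 1.24, and it was 0.18 without liver control 2 and 0.83 without liver control 1. The intervals of Tef, Hlf, Nfil3, Ciart and Rora also included 0. Without liver control 2 the difference was 0.03 for Tef and 0.46 for Ciart, which was 1.54 without liver control 1. The sign for Nfil3 turned without liver heat stress replicate 2 (-0.06) and that for Rora without brain control 3 (-0.12).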

How the data were processed

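Stranded libraries of oligo-dT enriched RNA were sequenced, 3 control and 3 heat stress libraries in each tissue. The authors deposited raw read counts per gene symbol. Per the labels these came from Trimmomatic 0.39, HISAT2 2.2.1 on mm10 and featureCounts of Subread 2.0.1, whereas the methods also describe Tophat2 and HTSeq. The annotation release and the use of strand are not given in the sources used here. The deposited tables of the authors' own DESeq2 comparisons (mean counts, fold changes and p-values) were not used.

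Counts were tested in R 4.3.3 with edgeR 4.0.16, by the robust quasi-likelihood test after TMM normalization and the filterByExpr filter (minimum count 10, minimum total 15), and p-values were adjusted by the Benjamini-Hochberg method over all genes tested. A call is an adjusted p-value under 0.05. The standard error of a log2 fold change is its size divided by the root of F. CPM is normalized by TMM within a tissue. With 3 against 3 an exact permutation test cannot go below 0.1, which is the value of each separated gene. Likeness to Dbp used log2 of CPM plus 0.1. Gene models were those of GENCODE M21 (GRCm38, the same assembly as mm10) and promoters those of RefSeq (GRCm38.p6). The procedure was tested on simulated counts.

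The members and gene lists were chosen with earlier results of these data known. The genes named for their values are the members, the listed genes with an unadjusted p-value under 0.05 and the 5 genes nearest Dbp. Markers at 0 in some libraries are named as well. One gene of the ROR and REV-ERB list is not reported here, and no count or median of that list is given. Acot4, Cyp2a4, Cyp2c50, Cyp7a1, Ttr and the T and NK cell markers were named after their values were seen. Alternatives were other normalizations and filters, DESeq2 1.42.0, all 12 libraries in a single model, the replicate number as a block, leaving out libraries and, chosen after seeing the data, the suffix 2nd as a covariate. Same-numbered control brain and control liver libraries deviated together, with correlations of 0.371, 0.366 and 0.12, so the numbers may pair them. The main tests, those of the control tissues and of the difference included, used no pairing. For the heat stress libraries the correlations were 0.053, -0.213 and 0.0323, which show no pairing. The labels do not say that each library is a separate mouse in both tissues, so p-values measure the spread between these libraries.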

Additional observations from a re-analysis of the deposited data

How the results depend on the processing

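In liver, the 0 members called by edgeR became 2 with DESeq2, 2 without control replicate 1, 1 without the filter on low counts, 1 with all 12 libraries in a model, 4 without the 2 libraries with muscle transcripts and 1 with the suffix 2nd as a covariate, an alternative chosen after seeing the data. Bhlhe41 was among the called members in each of these settings. Leaving out each liver library in turn gave between 0 and 2 called members, and between 4 and 6 at an unadjusted p-value under 0.05. In brain, DESeq2 called 1 member. The count of 5 brain members at an unadjusted p-value under 0.05 became 1 with all libraries in a model and lay between 2 and 4 when each library was left out. For the difference between the tissues, DESeq2 called 1 member, leaving out each library gave 0 or 1, and the count of 3 at an unadjusted p-value under 0.05 became 6 without the 2 libraries with muscle transcripts and lay between 3 and 6 when each library was left out. Between the control tissues, 5 to 8 members were called when each library was left out. For these alternatives the share of all genes at an unadjusted p-value under 0.05 is not given, so the counts at that level cannot be read against it.

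Some estimates changed sign when a library was left out, among them that of Rora in brain, which was -0.31 with all libraries. In liver these were Hlf without control replicate 3 (log2 fold change -0.0064, and up to 0.19 with others left out) and Rora without control replicate 3 (0.15) or heat stress replicate 2 (0.04), which reached down to -0.19. In brain they were Usp2 without control replicate 1 (0.16) or heat stress replicate 1 (0.06), with a lowest value of -0.15, and Rora without control replicate 3 (0.12), with a lowest value of -0.51. For the difference they were Nfil3 without liver heat stress replicate 2 (-0.062, and up to 0.32) or without the libraries with muscle transcripts (-0.11) and Rora without brain control 3 (-0.12, and up to 0.49). Between control tissues they were Ciart without brain control 1 (0.03), liver control 2 (0.15) or liver control 3 (0.02), against -0.93 without liver control 1, and Rora without liver control 3 (-0.0087), against 0.63 without brain control 3. The cause was not tested.

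With the replicate number as a block, 0 members were called in liver and 0 in brain. In each tissue 4 had an unadjusted p-value under 0.05, for which the share of all genes is not given. The block left 0 called for the difference and 6 between the control tissues, so it changed no call. It spans the heat stress libraries as well, so it cannot test a pairing of the control tissues alone. The numbers do not pair heat stress with control, since same-numbered libraries correlated between -0.618 and -0.112 in liver and between -0.218 and 0.248 in brain. Bhlhe41 rested on 31 to 56 reads in control liver, so its fold change carries counting error there as well as the spread between libraries.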

Other observations

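Within each library, the reads of a pair of members can be set against each other, which removes the scaling between libraries. These ratios of read counts were chosen after the values were seen and carry no test. The ratio of Dbp, the activator, to Nfil3, the repressor at the same D-boxes, was 7.66, 7.27 and 6.61 in the control brain libraries. After heat stress it was 13.7, 17 and 13.3, so every heat stress library was above every control library. In brain this was fixed in advance, because the groups of Dbp and of Nfil3 were already separate in opposite directions. In liver the same ratio was 8.02, 2.67 and 5.34 against 11.8, 10.3 and 16.7, again without overlap.

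Among the DEC repressors, the share of Bhlhe41 was higher in each heat stress library than in the controls of the same tissue. The ratio of Bhlhe41 to Bhlhe40 reads was 0.368, 0.565 and 0.520 in control brain and 0.805, 0.709 and 0.669 after heat stress, and 0.0187, 0.0198 and 0.0419 in control liver against 0.0782, 0.0748 and 0.0708 after heat stress. The ratio of Dbp to Hlf was 0.280, 0.367 and 0.299 in control brain and 0.528, 0.604 and 0.552 after heat stress. In liver it was 2.11, 1.20 and 2.03 against 2.99, 3.70 and 3.91. Neither pair overlapped between the groups in either tissue. For these pairs and for Dbp and Nfil3, the share of all gene pairs that separate in this way was not counted. Each pair holds Dbp or Bhlhe41, whose groups were already separate in both tissues. Of single genes, 12.9% of those tested in brain and 5.38% of those in liver were higher in every heat stress library.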
